A study of Mus musculus with 6 samples.

Results

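Kruppel-like factors (KLFs) are transcription factors that bind GC-rich and CACCC-type DNA sequences through zinc fingers at their carboxyl end. Their levels were examined here in taste cells of mice at 2 ages. The members are the 10 genes Klf2, Klf3, Klf4, Klf5, Klf6, Klf7, Klf8, Klf9, Klf10 and Klf13, picked by their names from a table of 23361 genes that holds 17 Klf genes in all. The cells came from the circumvallate and foliate (CV/Fol) papillae of C57BL/6 mice, whose taste buds are set in the tongue epithelium, and no further treatment or transgene is given in the labels. The younger group, at 2 months, had 3 libraries, each made from the pooled cells of 4 mice, and the older group, at 6 months, had 3 libraries, each from 3 mice. Sex was not given in the sources used here, and the design text names 3 months in place of 2 in one passage, whereas the sample labels give 2 months.

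KLFs are usually placed in families by the partner proteins that they bring to DNA. Klf2, Klf4, Klf5, Klf6 and Klf7 belong to a group that mostly activates genes with the help of acetyltransferases. Klf3 and Klf8 recruit the co-repressor CtBP, and Klf9, Klf10 and Klf13 recruit the co-repressor Sin3. In stratified epithelium Klf4 is known for driving the late differentiation of keratinocytes and the skin barrier, and Klf5 for keeping basal progenitors dividing. Several members, Klf4, Klf6 and Klf10 among them, are also known to be switched on rapidly by growth factors, serum or stress, and Klf9 is a target of glucocorticoid and thyroid hormone.

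All members carry the same DNA-binding unit, and its coding sequence is shown because it defines the family and because near-identical copies could share reads. In the GRCm38 gene models of GENCODE M21, the stretch from the first zinc-binding cysteine codon of finger 1 to the last histidine codon of finger 3 was found once in each of the 17 Klf genes and was 243 bases, or 81 codons, long in every one. Of these bases, 84 (34.6%) were the same in all 10 members. The stretch is printed for 6 members, which are the most abundant members (Klf4 and Klf5), the CtBP-binding Klf3, the Sin3-binding Klf9 and the closest pair (Klf6 and Klf7). Capitals mark the 12 cysteine and histidine codons that hold the zinc ions, and the coordinates include the introns within each stretch. The stretch lies at chr4:55528131-55529790 (minus strand) for Klf4, chr14:99302242-99313320 (plus strand) for Klf5, chr5:64827198-64829146 (plus strand) for Klf3, chr13:5865272-5867277 (plus strand) for Klf6, chr1:64035719-64078779 (minus strand) for Klf7 and chr19:23142187-23164852 (plus strand) for Klf9.
Klf4: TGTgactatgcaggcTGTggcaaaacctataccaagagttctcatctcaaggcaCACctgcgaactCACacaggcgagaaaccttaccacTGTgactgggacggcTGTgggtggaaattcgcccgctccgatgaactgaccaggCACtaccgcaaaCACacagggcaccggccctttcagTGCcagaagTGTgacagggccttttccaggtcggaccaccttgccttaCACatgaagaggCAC
Klf5: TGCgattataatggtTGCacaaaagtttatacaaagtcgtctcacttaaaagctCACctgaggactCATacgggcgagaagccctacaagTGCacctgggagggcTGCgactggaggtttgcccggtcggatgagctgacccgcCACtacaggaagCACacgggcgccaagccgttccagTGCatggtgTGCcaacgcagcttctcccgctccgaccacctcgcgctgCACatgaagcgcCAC
Klf3: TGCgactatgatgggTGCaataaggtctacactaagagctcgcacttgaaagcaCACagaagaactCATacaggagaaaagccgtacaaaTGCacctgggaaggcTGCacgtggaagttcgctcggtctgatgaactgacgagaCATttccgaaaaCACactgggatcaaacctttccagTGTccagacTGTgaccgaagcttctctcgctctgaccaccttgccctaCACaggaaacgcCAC
Klf6: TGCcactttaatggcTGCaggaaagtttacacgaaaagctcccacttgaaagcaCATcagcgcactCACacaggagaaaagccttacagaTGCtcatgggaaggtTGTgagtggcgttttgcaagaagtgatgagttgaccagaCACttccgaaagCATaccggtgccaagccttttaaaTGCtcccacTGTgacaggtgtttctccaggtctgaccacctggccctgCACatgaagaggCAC
Klf7: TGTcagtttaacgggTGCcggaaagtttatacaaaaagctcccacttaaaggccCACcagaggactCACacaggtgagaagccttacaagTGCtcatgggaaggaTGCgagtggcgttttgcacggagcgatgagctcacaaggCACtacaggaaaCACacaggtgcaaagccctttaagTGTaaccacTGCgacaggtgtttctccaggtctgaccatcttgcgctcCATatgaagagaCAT
Klf9: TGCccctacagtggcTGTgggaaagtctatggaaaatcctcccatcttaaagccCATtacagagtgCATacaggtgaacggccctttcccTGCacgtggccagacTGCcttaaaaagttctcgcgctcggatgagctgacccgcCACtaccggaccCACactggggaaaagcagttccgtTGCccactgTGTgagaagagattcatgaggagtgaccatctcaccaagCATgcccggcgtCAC

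Across the 45 pairs of members, the identity of bases in this stretch ranged from 57.2 to 81.1%, with a median of 65.8%. The 14 pairs within a partner group had a median of 69.8%, and the 31 pairs between groups had a median of 61.3%. The closest pair was Klf6 and Klf7 with 81.1%, followed by Klf2 and Klf4 with 78.2% and by Klf3 and Klf8 with 75.3%. The longest run of bases shared by any 2 members over their whole transcripts was 26 bases. Each of these closest pairs was far apart in level. Klf6 was 12.1 times as high as Klf7 at 2 months and 11.6 times at 6 months. Klf4 was 88.1 and 84.2 times as high as Klf2, and Klf3 was 71.4 and 61.5 times as high as Klf8. The next pair in identity, Klf3 and Klf5 with 73.7%, was closer in level, with Klf5 2.61 and 2.73 times as high as Klf3.

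**Figure D1:**
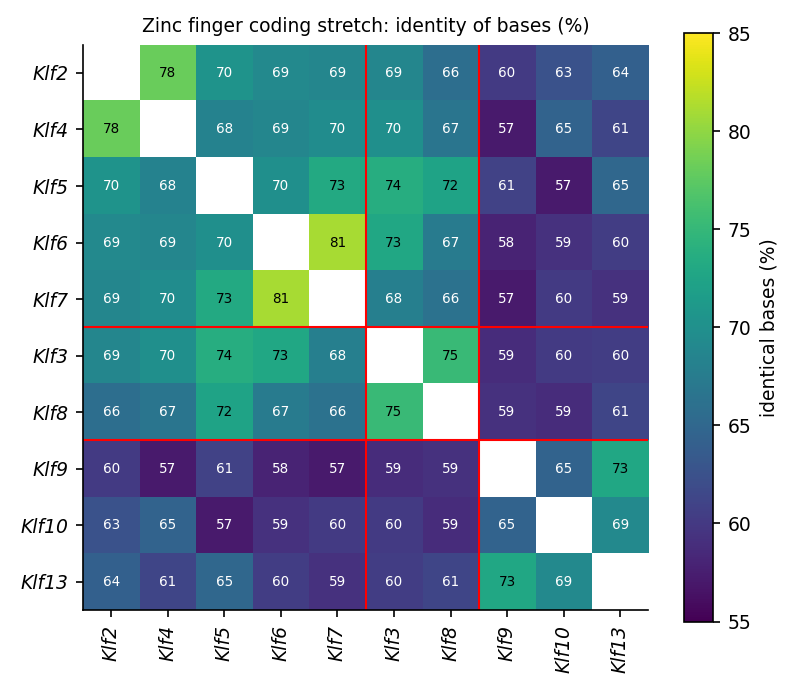
Identity of bases (%) in the zinc finger coding stretch for each pair of the 10 members, with red lines between the activator-type, CtBP-binding and Sin3-binding groups. Klf6 with Klf7, at 81.1%, was the closest pair, and Klf9 and Klf10 against the activator-type members reached as low as 57.2%.

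Outside the fingers, the gene models of the members varied in length and in base composition. Each of the 10 genes lies on a chromosome of its own. Coding length ran from 732 bases in Klf9 to 1449 bases in Klf4, and the number of exons in the longest coding transcript from 2 to 7. Klf2 spans only 2624 bases on chromosome 8 (72319033 to 72321656), while Klf8 spans 158667 bases on the X chromosome (153237466 to 153396132). GC content of the transcripts ran from 42.4% in Klf6 to 61.6% in Klf2. On the opposite strand, exons of Klf3 share 404 bases with the non-coding gene Gm20033 and exons of Klf7 share 3196 bases with the non-coding gene Gm26649. The methods name default alignment settings and no step that keeps the strand of the RNA. The levels of Klf3 and Klf7 may therefore hold reads of these neighbours.

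The table holds 1 value per gene and age, in FPKM, the read fragments of a gene scaled to its length and to the size of the library. Each value was estimated over the 3 libraries of that age and deposited without an error. FPKM is corrected for length, so levels of different genes can be set side by side, but it carries no depth, and the depth of the libraries is unknown here. Values of single libraries were not analysed here, so no SD, confidence interval or test accompanies any value, and a difference between the ages was not compared with the spread between pools. The 12652 genes with 1 FPKM or more on average over both ages were counted as expressed, with medians of 11.8 and 11.7 FPKM at 2 and 6 months. Changes are the difference of log2(FPKM + 1), 6 months minus 2 months, a scale that understates the change of weakly expressed genes.

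Among the members, Klf4 and Klf5 stood highest at both ages. Klf4 had 249 and 214 FPKM at 2 and 6 months, and it lay above 97.2% and 96.9% of expressed genes. Klf5 had 165 and 168 FPKM and lay above 95.9% and 96.2% of expressed genes. Together these 2 genes made up 69.6% and 69.1% of the total of the 10 members. The factor of late epithelial differentiation and the factor of basal progenitors were thus both abundant in the same preparation, which is a mixture of cells.

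A middle tier was formed by Klf3, Klf6, Klf10 and Klf13. The CtBP-binding repressor Klf3 had 63.3 and 61.5 FPKM at 2 and 6 months. Klf6, a broadly expressed activator that injury induces, had 41.1 and 36.7 FPKM, and Klf10, known as a TGF-beta-inducible early gene, had 33.9 and 33.6 FPKM. Klf13, known as an activator of a chemokine gene in T cells, had 26.1 and 24.2 FPKM. These 4 genes and the 2 leading ones, 6 members in all, were above the median of expressed genes at 2 months.

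The lower tier held Klf9, Klf7, Klf2 and Klf8. Klf9 had 9.36 and 7.87 FPKM at 2 and 6 months, which is above 43.1% and 38.4% of expressed genes. Klf7, a factor of axon outgrowth in neurons, had 3.39 and 3.18 FPKM, and Klf2, a factor of endothelial cells and resting T cells, had 2.82 and 2.54 FPKM. Klf8 had 0.886 and 1.001 FPKM at 2 and 6 months. Its mean of 0.943 FPKM was under the limit of 1 FPKM, so 9 of the 10 members were counted as expressed.

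The order of the 10 levels was the same at both ages. From the highest to the lowest member, levels spanned 281-fold at 2 months and 214-fold at 6 months. The wider steps in this order lay between Klf5 and Klf3 (2.61-fold and 2.73-fold), Klf13 and Klf9 (2.79-fold and 3.08-fold), Klf9 and Klf7 (2.76-fold and 2.48-fold) and Klf2 and Klf8 (3.18-fold and 2.54-fold). Klf6 and Klf10 were only 1.21-fold apart at 2 months and 1.09-fold at 6 months, and Klf7 and Klf2 were 1.201-fold and 1.252-fold apart. With no value per library, the order of these close neighbours was not compared with the spread between pools.

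**Figure D2:**
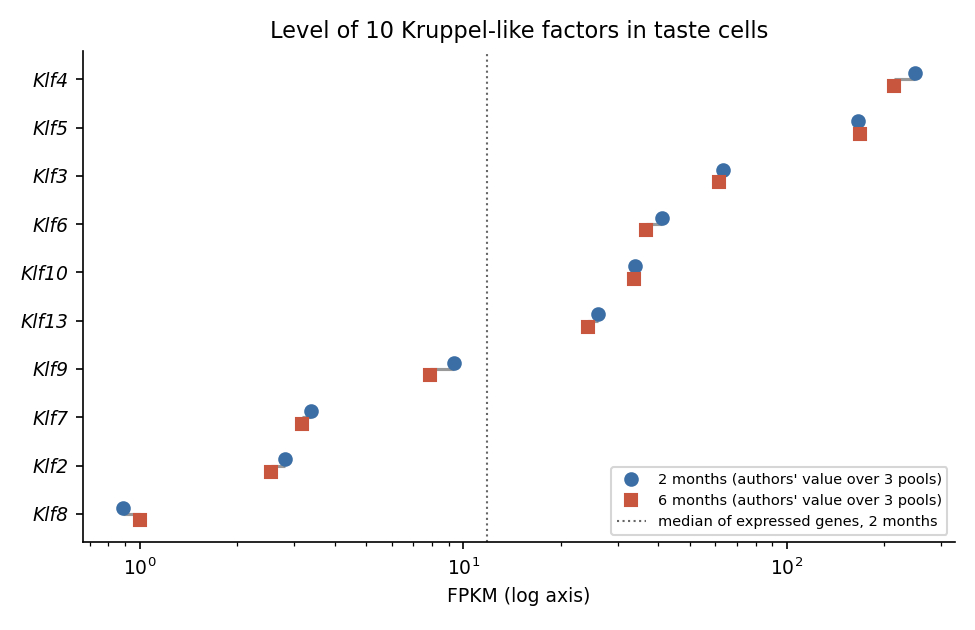
FPKM of each member on a log axis at 2 months (blue circles) and 6 months (red squares), each point being the authors' value over 3 pools, without an error bar because no value per library was analysed. The dotted line is the median of expressed genes at 2 months, 11.8 FPKM. The shift between the ages is small for each member beside the 281-fold span between Klf4 and Klf8.

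By partner group, the activator-type members summed to 461 and 424 FPKM at 2 and 6 months. The CtBP-binding members summed to 64.2 and 62.5 FPKM and the Sin3-binding members to 69.3 and 65.7 FPKM. Over all 17 Klf genes, the activator-type group of 6 took 73.4% of the sum at 2 months and 71.99% at 6 months, so the shares of the groups were close at both ages. Transcripts of the partner proteins were present. Ctbp1 had 77.6 and 75.6 FPKM, Ctbp2 had 33.4 and 32.9 FPKM, Sin3a had 13.3 and 14.3 FPKM and Sin3b had 74.4 and 71.1 FPKM. In the whole list of KLF co-regulators, which adds acetyltransferases, deacetylases, ubiquitin ligases and the Mapk7 pathway, 16 of 17 genes were expressed and their median log2 change was 0.049. None of the 16 differed by 1.5-fold or more between the ages, a size seen for 2.77% of all expressed genes. A count of 0 among 16 is near that background and says little by itself.

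The comparison of 6 with 2 months asks how the levels of these factors stand in taste cells of older mice. None of the 9 expressed members reached a difference of 1.5-fold, a size seen for 2.77% of all expressed genes. Of the expressed genes, 79 are listed at exactly 0 FPKM at 1 age, which may be failed estimates, and without them the share past 1.5-fold was 2.16%. No member is listed at 0. Since a call is expected for only a small share of any genes, a count of 0 among 9 is near the background and says little by itself.

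Klf9 had the largest difference on the log2 scale among the expressed members. Its level at 6 months was 84.0% of that at 2 months, a log2 change of -0.22, and 14.7% of expressed genes had a larger absolute change. Klf4 was next with 85.9% of the 2 month level, a log2 change of -0.22 as well. Klf6 was at 89.4% of the 2 month level and Klf2 at 89.9%, with log2 changes of -0.16 and -0.11. These 4 genes lay below the lower quartile of the log2 changes of all expressed genes, which was -0.10.

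The other 5 expressed members lay between the quartiles of all expressed genes, -0.10 and 0.079. Klf13 had a log2 change of -0.10, Klf7 of -0.072 and Klf3 of -0.040. Klf10, at 99.3% of its 2 month level, had a log2 change of -0.010 and was the member that differed least, since 94.0% of expressed genes had a larger absolute change. Klf5 was the only expressed member with a higher value at 6 months, at 102% of the 2 month level and a log2 change of 0.023. Klf8, under the limit for expressed genes, was at 113% of its 2 month level with a log2 change of 0.085.

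In all, 8 of the 9 expressed members were lower at 6 months, where 53.7% of all expressed genes were lower. The median log2 change of the 9 was -0.10, and that of all expressed genes was -0.012. The direction was not firm for the members nearest to 0. When the 6 month values were multiplied by 1.03 to bring the upper quartiles of the ages together, Klf3 went to 0.0022 and Klf10 to 0.031, and 6 of 9 were lower. With the same median at both ages, Klf10 went to 0.0083 and 7 of 9 were lower. The median log2 change of all expressed genes moved as well, to 0.025 with the same upper quartile and 0.0046 with the same median. That of the 9 members was then -0.061 and -0.083. The share of all expressed genes that were lower was not counted under these scalings. Klf2, Klf4, Klf6, Klf7, Klf9 and Klf13 were lower under every scaling that was run. The levels of the 10 members added up to 595 FPKM at 2 months and to 552 FPKM, or 92.9% of this, at 6 months. Without Klf4, the sum at 6 months was 97.9% of that at 2 months. In these mixed preparations, fewer cells of a type and less RNA per cell cannot be told apart.

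**Figure D3:**
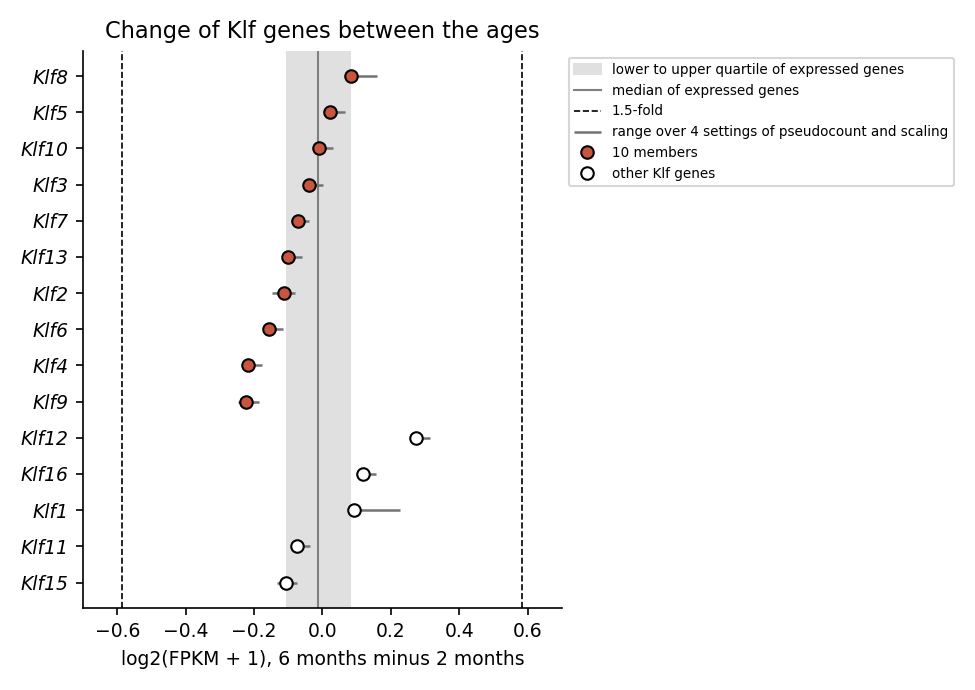
Difference of log2(FPKM + 1), 6 months minus 2 months, for the 10 members (red) and the other Klf genes with a mean above 0.1 FPKM (white). The grey band runs from the lower to the upper quartile of all expressed genes, the dashed lines mark 1.5-fold, and the short horizontal lines give the range over the pseudocounts and scalings that were run, not an error. No Klf gene reaches a dashed line, a size seen for 2.77% of all expressed genes. The members Klf9, Klf4, Klf6 and Klf2 lie to the left of the band, and so does Klf15 of the other genes, at -0.106. Klf8 of the members and Klf1, Klf12 and Klf16 of the other genes lie to its right.

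The 7 other Klf genes of the table summed to 34.5 and 37.4 FPKM and had no common direction. The members held 94.5% of the total of all 17 Klf genes at 2 months and 93.6% of it at 6 months. Klf16 had 14.3 and 15.6 FPKM at 2 and 6 months, and the AP-2 alpha repressor Klf12 had 9.76 and 12.01 FPKM. With a log2 change of 0.27, Klf12 differed more between the ages than any member. Klf11 had 6.42 and 6.06 FPKM, and Klf15, a glucocorticoid-induced factor of metabolism, had 3.50 and 3.18 FPKM. Klf1, the erythroid member, was under 1 FPKM with 0.475 and 0.573 FPKM. Klf17 was at 0.0371 and 0.0365 FPKM, and Klf14 was at 0.0207 FPKM at 2 months and listed at 0 at 6 months. Of the 4 that were expressed, 2 were lower and 2 higher at 6 months, where 53.7% of all expressed genes were lower.

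Sp factors share the 3-finger DNA-binding unit and the GC-rich target sequences of the KLFs. Of 9 Sp genes, 5 were expressed, and their median log2 change was -0.032. Sp6, an epithelial factor of tooth and skin, had 25.6 and 29.2 FPKM at 2 and 6 months, Sp3 had 24.98 and 24.1 FPKM and the ubiquitous Sp1 had 19.0 and 19.3 FPKM. Sp7, Sp8 and Sp9 are listed at 0 at both ages. The highest Sp gene was thus well below Klf4 and Klf5 and close in level to Klf13.

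Promoter sequence was examined for the letters that the family itself recognises and for letters read by factors of rapid induction. RefSeq promoter windows of GRCm38.p6 were found for 8 of the 10 members, with 2 windows for Klf8, and the 250 bases before the start were used. No window was found for Klf5 or Klf10, so the letters of their promoters were not examined. Klf4, the most abundant member, and Klf9, the member with the largest difference on the log2 scale, are shown, at chr4:55532476-55532725 on the minus strand and at chr19:23140976-23141225 on the plus strand. Capitals mark CACCC and the GC box GGGCGG on either strand.
Klf4: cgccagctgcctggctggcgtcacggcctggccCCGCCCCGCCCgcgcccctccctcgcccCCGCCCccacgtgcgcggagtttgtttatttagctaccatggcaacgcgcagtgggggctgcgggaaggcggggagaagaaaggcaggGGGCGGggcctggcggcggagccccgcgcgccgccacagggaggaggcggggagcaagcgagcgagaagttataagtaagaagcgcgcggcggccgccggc
Klf9: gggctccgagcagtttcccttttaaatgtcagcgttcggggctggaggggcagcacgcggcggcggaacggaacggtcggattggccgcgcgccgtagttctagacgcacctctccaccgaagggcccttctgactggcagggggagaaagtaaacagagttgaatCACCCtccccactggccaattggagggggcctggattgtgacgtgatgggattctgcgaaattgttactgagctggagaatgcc

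The GC box was found in 8 of the 9 member windows and in 32.7% of all 32851 RefSeq windows of this length, and the exception was Klf9. CACCC was found in 7 of the 9 windows, all but those of Klf4 and Klf6, and in 52.01% of all windows. Matches of CACCC and of the GC box can share letters. The member windows were rich in G and C, with 54.8 to 78.4% against a median of 52.4% over all windows, a composition that bears on both counts. The letters TGACG, the core of the cyclic AMP response element TGACGTCA, were found in 4 of 9 windows, those of Klf2, Klf4, Klf9 and Klf13, and in 17.8% of all windows. The full element TGACGTCA was found in 0 of 9 and in 1.55% of all. The AP1 letters TGANTCA were found only in the window of Klf9, where they share 2 letters with CACCC, and in 6.75% of all windows. A CArG box, the site read by serum response factor, was found in 1 of the 2 windows of Klf8 and in 1.47% of all windows. The E-box CACGTG was found in the windows of Klf4 and Klf6 and in 6.02% of all windows. These matches describe the letters of the windows and are not measured binding sites.

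Because several KLFs are known as rapid-response genes, their values were set beside those of immediate early genes, which are transcribed within minutes of a stimulus. Of the 22 listed, 20 were expressed and 18 were lower at the older age, where 53.7% of all expressed genes were lower. Their median log2 change was -0.53, and 9 were lower by at least 1.5-fold, which 1.72% of all expressed genes were. Egr1 had 100.1 and 31.1 FPKM at 2 and 6 months, and Fos had 139.7 and 37.5 FPKM. At 2 months Klf4 and Klf5 were thus above the level of Fos and Egr1, and at 6 months Klf3 was as well, while Klf6 at 36.7 FPKM was next to Fos. The lowest log2 change among the KLFs was -0.22, against -1.87 for Fos, -1.65 for Egr1, -1.44 for Fosb, -1.22 for Atf3 and -1.15 for Jun. Other immediate early genes were in the range of the KLFs, such as Jund with -0.070, Ier5 with -0.081 and Maff with -0.21. The difference between the lists was not tested, and the lists were drawn up with earlier results of these data known.

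Klf9 and Klf10 are also known as outputs of the circadian clock, and Klf9 as a glucocorticoid target. Of 16 clock genes in the table, all expressed, 4 were lower and 12 higher at the older age, with 0.32 as the median log2 change. Of all expressed genes, 53.7% were lower. Per1, which is also a glucocorticoid target, had 11.8 and 16.8 FPKM at the 2 ages, with a log2 change of 0.47, and Dbp had 24.5 and 36.9 FPKM, a log2 change of 0.57. Bhlhe41 was the clock gene higher by 1.5-fold, a size and direction seen for 1.05% of all expressed genes, with 1.86 and 3.70 FPKM. The 4 lower clock genes were Arntl, Npas2, Nfil3 and Nr1d1, with log2 changes of -0.36, -0.28, -0.18 and -0.00698. Klf9 and Klf10 were lower or near 0 where most of the clock genes were higher. Of 7 expressed glucocorticoid-response genes, 3 were lower and 4 higher, with a median log2 change of 0.057. Higher values at 6 months were found for Per1, Tsc22d3, Fkbp5 and Sgk1, with log2 changes from 0.47 to 0.057. Lower values, the direction of Klf9, were found for Mt2, Cebpd and Errfi1, with log2 changes of -0.18, -0.13 and -0.022.

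**Figure D4:**
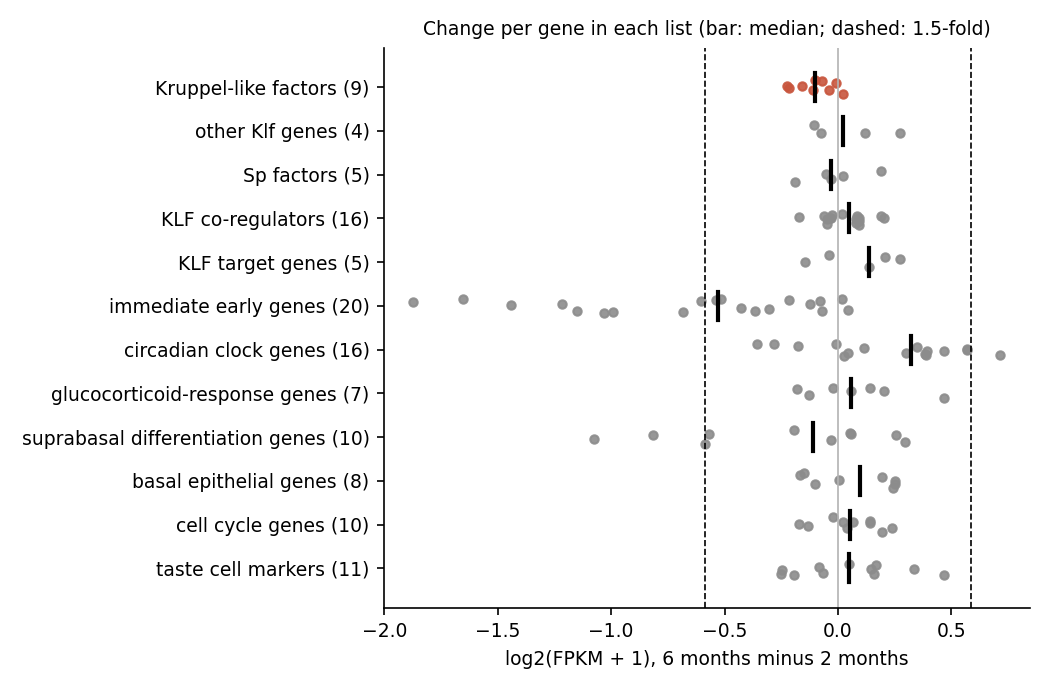
Difference of log2(FPKM + 1), 6 months minus 2 months, for each expressed gene of 12 lists, with the number of genes plotted in brackets, a vertical bar at the median and dashed lines at 1.5-fold. Genes listed at 0 at 6 months are not drawn. The KLFs (red) lie between -0.22 and 0.023, the immediate early genes reach -1.87, and the clock genes have a median of 0.32.

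Known targets of KLFs were read from a short list of 8 genes, of which 5 were expressed. Cdkn1a, the p21 cell cycle inhibitor that Klf4 and Klf6 activate, had 218 and 251 FPKM at 2 and 6 months, a log2 change of 0.21. Lgals3, which Klf3 represses, had 403 and 443 FPKM, and Ccnd1, a cyclin that Klf5 raises, had 76.1 and 92.3 FPKM. Thbd, the thrombomodulin gene activated by Klf2 and Klf4, had 22.4 and 20.2 FPKM, and Smad7 had 6.69 and 6.49 FPKM. None of the 5 reached 1.5-fold, a size seen for 2.77% of all expressed genes. At 6 months 3 were higher and 2 lower, where 53.7% of all expressed genes were lower. Nos3, a target of Klf2 in endothelium, was under 1 FPKM at both ages.

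The labelled cell type was checked against its markers, and the other cells of a peeled epithelium were looked for beside it. Of 12 taste cell markers, 11 were expressed, among them Gnat3 with 84.7 and 79.9 FPKM, Trpm5 with 29.1 and 27.7 FPKM, Entpd2 with 66.1 and 57.7 FPKM and Pkd2l1 with 12.4 and 14.0 FPKM. Gad1 was expressed at only 1.41 and 2.04 FPKM. The marker under the limit was Slc1a3, with 0.710 and 0.988 FPKM. Several keratinocyte genes were higher still. Krt5 of basal cells had 2180 FPKM at 2 months, Krt14 had 1287 FPKM and the cornified envelope gene Lor had 1292 FPKM. Others were below Gnat3, such as the basal gene Itga6 with 29.4 FPKM and the suprabasal gene Ivl with 32.9 FPKM at 2 months. Which cells of the preparation hold the Klf4 and Klf5 transcripts was not measured. All 8 basal genes and 11 of 12 suprabasal genes were expressed. Krt13 is listed at 0 at both ages and Krt4, with 7334 FPKM at 2 months, is listed at 0 at 6 months, which in a tongue epithelium may be failed estimates, and no fold is given for either.

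The suprabasal genes did not share 1 direction. Without Krt4, 10 were expressed, of which 6 were lower and 4 higher at 6 months, where 53.7% of all expressed genes were lower. Of the 6, 3 were lower by at least 1.5-fold, which 1.72% of all expressed genes were. These 3 were Krt10, with 149.7 and 70.5 FPKM, Lor, with 1292 and 733 FPKM, and Ivl, with 32.9 and 21.5 FPKM. Tgm1, with 224 and 219.7 FPKM, and Grhl3, with 121 and 126 FPKM, differed less than Klf4. Sprr1b and Sprr3, both of the cornified envelope, were higher at 6 months, with log2 changes of 0.30 and 0.26 beside -0.22 for Klf4. Sprr1a, of a higher level than either, was lower, with 3554 and 3105 FPKM and a log2 change of -0.19. Krt1 was lower as well, with a log2 change of -0.57. The part of the suprabasal cells in the lower value of Klf4 was not tested. Of the 8 basal genes, 3 were lower and 5 higher at the older age, and the median log2 change was 0.099. Their log2 changes ran from -0.17 in Trp63 to 0.25 in Itgb4 and Krt14. The 10 cell cycle genes had a median of 0.054, beside 0.023 for Klf5.

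Most markers of endothelial cells and T cells, in which Klf2 is best known, were low. Cd3e was the only T cell gene listed, and the share of these cells was not measured. Of 10 endothelial markers only Vwf and Tek averaged 1 FPKM or more, and the 10 summed to 6.73 and 6.06 FPKM at 2 and 6 months. Emcn is listed at 0 at 6 months. Pecam1 had 0.331 and 0.295 FPKM, Cdh5 had 0.0323 and 0.0951 FPKM and Kdr had 0.0196 and 0.00918 FPKM. Cd3e, a T cell marker, had 0.370 and 0.822 FPKM, and Ptprc, of all leukocytes, had 1.54 and 1.65 FPKM. Klf2, at 2.82 and 2.54 FPKM, was above Pecam1, Cdh5, Kdr, Cd3e and Ptprc and below Vwf, which had 3.94 and 3.34 FPKM. The 8 leukocyte markers, of which 6 were expressed, summed to 414 and 375 FPKM, mostly from Lyz2 and Cd74. Of 5 fibroblast markers 1 was expressed, and the 5 summed to 1.59 and 1.34 FPKM. The 6 muscle genes summed to 11.2 and 22.2 FPKM. Of these, 5 were expressed, all 5 were higher at 6 months (median log2 change 0.79), and 4 were higher by at least 1.5-fold, which 1.05% of all expressed genes were. The 4 were Tnnc2, with 2.14 and 5.57 FPKM, Mb, with 1.82 and 4.28 FPKM, Acta1, with 1.98 and 4.15 FPKM, and Ckm, with 1.16 and 2.39 FPKM. Their part in the values of the KLFs was not tested.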

How the data were processed

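RNA of CV/Fol taste cells was measured in 6 libraries, 3 at 2 months and 3 at 6 months. According to the labels and the methods, the authors aligned the reads to GRCm38/mm10 with TopHat2 2.0.7, using a RefSeq annotation, and estimated levels with Cufflinks 2.1.1 and Cuffdiff. The authors deposited 1 FPKM value per gene and age. How Cuffdiff scaled the libraries is not given in the sources used here. The column of the 6 month group was found by the letter in its sample titles. A further column holds a p-value from the authors' own comparison of the ages and was not used.

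The members and gene lists were chosen with earlier results of these data known. Changes were computed as differences of log2(FPKM + 1) and compared with a threshold of 1.5-fold among genes that averaged 1 FPKM or more. No test was made on the 1 value per age, so counts and medians are given beside those of all expressed genes. The arithmetic alone was checked, on 2 month values to which known changes were added without noise. All 10 members were named, and of the other lists the genes past 1.5-fold, up to 5 per direction, and the defining markers. Other genes were named for their known role or for a level or change close to that of a member, after their values had been seen. Gene models and transcripts came from GENCODE M21 (GRCm38) and promoter windows from RefSeq. Python 3.11.15, numpy 2.4.6, pandas 2.3.3 and matplotlib 3.10.9 were used.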

Additional observations from a re-analysis of the deposited data

How the results depend on the processing

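The 2 ages were measured in pools of different mice, so no paired analysis was made. No fit without a replicate was run, because single libraries have no column in the table. The pseudocount, the scaling, the limit on expression, the fold threshold and the set of genes were varied. No member reached 1.5-fold under any of them. The number of members lower at 6 months was 8 of 9, and 6 with the same upper quartile, 7 with the same median and 6 of the 7 that averaged 5 FPKM or more. The members' median log2 change was -0.10 and ranged from -0.11 with a pseudocount of 0.1 to -0.061 with the same upper quartile. The median of all expressed genes went from -0.012 to 0.025 with the same upper quartile. Leaving genes listed at 0 at 1 age out of the background was chosen after the data had been seen. The differences were not compared with the spread between pools, since no value per pool was used.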
